A study of Homo sapiens with 6 samples.

Results

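Krüppel-like factors (KLFs) are zinc finger transcription factors, whose transcripts were measured by RNA sequencing in T3M4 (a cell line from a human pancreatic ductal adenocarcinoma) after targeting of the methyltransferase gene METTL13. The genes described are the 10 whose symbols are KLF2, KLF3, KLF4, KLF5, KLF6, KLF7, KLF9, KLF10, KLF11 and KLF13, out of 16617 genes in the authors' deposited table, and all 10 were found there. They were picked with the comparison of these same cells in view, so their fold changes and p-values are given as a description and support nothing by themselves. The sgMETTL13 group comprised 3 libraries of T3M4 cells with a guide RNA directed at METTL13, whose genotype the labels give as a knockdown, and the sgControl group comprised 3 libraries of T3M4 cells with a control guide and the genotype WT. Both groups grew in DMEM with fetal bovine serum, penicillin and streptomycin, in the conditions used for protein profiling of these cells. Whether the sgMETTL13 cells were 1 clone or a pool, and whether replicates came from separate cultures, the sources used here do not state, so the authors' p-values measure the spread between these libraries, which may be technical.

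KLFs are transcription factors that bind GC-rich and CACCC-type elements through zinc fingers at their C-terminal end, a feature they share with the SP factors. Their N-terminal parts differ and recruit partners: KLF2, KLF4, KLF5, KLF6 and KLF7 belong to the branch that recruits acetyltransferases, KLF3 to the branch that binds the CtBP corepressors, and KLF9, KLF10, KLF11 and KLF13 to the branch that binds the corepressor SIN3A. In epithelia KLF5 is known for driving proliferation and KLF4 for growth arrest and barrier differentiation, and several KLF genes are switched on within minutes by growth factors, serum or TGF-beta. METTL13 methylates eEF1A, the elongation factor that brings aminoacyl-tRNA to the ribosome.

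The authors' deposited table holds group averages over the 3 libraries and the authors' comparison, and the value of each library was not analysed here. The average estimated reads of all genes summed to 15247500 per library in sgMETTL13 and 15240866 in sgControl. METTL13 itself averaged 5.63 TPM (a level scaled to transcript length and to the library's total) in sgMETTL13 and 39.9 TPM in sgControl in the authors' deposited table. The 6 genes listed as ductal epithelial markers, KRT7, KRT8, KRT18, KRT19, EPCAM and CDH1, were all measured. Their summed levels were 4602 TPM in sgMETTL13 and 4739 TPM in sgControl in the authors' deposited table, which does not by itself identify the line. Of the leukocyte markers CD68 was measured, at 44.1 TPM in sgMETTL13 and 40.9 TPM in sgControl in the authors' deposited table. The authors' deposited table held 2 of 4 acinar markers, which summed to 1.96 TPM in sgMETTL13 and 0.81 TPM in sgControl, 3 of 4 fibroblast markers, which summed to 17.3 TPM in sgMETTL13 and 17.1 TPM in sgControl, and all 3 endothelial markers, which summed to 1.44 TPM in sgMETTL13 and 2.04 TPM in sgControl. None of the markers measured passed the test (1, CD68, at an unadjusted p under 0.05), and they were not used in any result.

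Upstream sequences are shown for the 3 KLF genes that passed the test in the comparison (KLF6, KLF4 and KLF5) and for KLF13, which had the smallest fold change, so that promoters of called genes and of the least changed gene can be read side by side. Each window holds 300 bases around the start site, 5′ to 3′ on the gene's own strand, from RefSeq (GRCh38.p14). Capitals mark the GC box GGGCGG and the CACCC box on either strand. The windows are chr10:3785160-3785459 on the minus strand for KLF6, chr9:107489720-107490019 on the minus strand for KLF4, chr13:73058755-73059054 on the plus strand for KLF5 and chr15:31326585-31326884 on the plus strand for KLF13.
KLF6: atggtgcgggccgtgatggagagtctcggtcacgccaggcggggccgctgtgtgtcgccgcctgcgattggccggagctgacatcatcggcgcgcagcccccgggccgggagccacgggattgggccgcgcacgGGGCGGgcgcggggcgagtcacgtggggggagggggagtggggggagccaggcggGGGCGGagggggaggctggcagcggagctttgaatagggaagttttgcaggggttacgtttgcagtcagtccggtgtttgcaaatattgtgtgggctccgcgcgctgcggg
KLF4: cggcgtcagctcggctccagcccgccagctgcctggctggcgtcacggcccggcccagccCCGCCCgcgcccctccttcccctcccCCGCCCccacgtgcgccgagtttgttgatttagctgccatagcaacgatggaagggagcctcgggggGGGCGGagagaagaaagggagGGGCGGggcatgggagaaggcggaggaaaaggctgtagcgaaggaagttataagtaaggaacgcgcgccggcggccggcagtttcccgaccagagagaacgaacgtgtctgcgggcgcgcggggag
KLF5: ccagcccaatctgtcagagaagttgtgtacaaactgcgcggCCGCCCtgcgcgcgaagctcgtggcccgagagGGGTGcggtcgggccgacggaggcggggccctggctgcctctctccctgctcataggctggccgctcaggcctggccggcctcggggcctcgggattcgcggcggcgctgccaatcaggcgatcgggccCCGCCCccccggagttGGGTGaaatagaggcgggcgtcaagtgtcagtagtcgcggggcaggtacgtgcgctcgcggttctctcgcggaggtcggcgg
KLF13: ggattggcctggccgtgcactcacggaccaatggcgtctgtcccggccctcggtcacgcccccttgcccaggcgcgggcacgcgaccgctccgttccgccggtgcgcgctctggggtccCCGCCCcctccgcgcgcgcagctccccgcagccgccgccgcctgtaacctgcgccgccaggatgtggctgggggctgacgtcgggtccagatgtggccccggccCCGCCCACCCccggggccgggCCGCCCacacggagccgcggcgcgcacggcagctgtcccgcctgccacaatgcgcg
In these windows KLF4 had 4 GC boxes, KLF13 3, and KLF6 and KLF5 2 each, while CACCC boxes numbered 2 in KLF5, 1 in KLF13 and 0 in KLF4 and KLF6. In KLF13 the CACCC box shared bases with a GC box.

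Promoters were listed for 8 of the 10 genes, and KLF3 and KLF10 were not among them. GGGCGG stood in 6 of the 8, with 6 copies in KLF2 as the highest number and 0 in KLF7 and KLF9, and in 45.2% of all 27305 promoters of the same length. These promoters, 1 per gene, outnumber the 16617 genes of the authors' deposited table, so they include genes not measured in these cells. CACCC stood in 3 of the 8 and in 59.0% of all promoters. Neither the cAMP response element TGACGTCA nor the CArG box bound by SRF was found in the 8 windows, and they stood in 2.00% and 1.29% of all promoters. The GC content of the 8 windows ran from 32.7% in KLF9 to 80.7% in KLF2, against a median of 58.7% over all promoters.

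The transcripts also share a feature of short-lived messages, the AU-rich pentamer ATTTA in the 3′ untranslated region. It was present in all 10 KLF transcripts taken from GENCODE 29, with 2 copies in KLF4, 5 in KLF5, 6 in KLF6 and 20 in KLF7, and in 67.1% of 15890 genes of the table with an annotated 3′ untranslated region. Per kilobase of that region 9 of the 10 were above the median of all genes, which was 1.49 copies per kilobase. Among the 10, KLF2 had the highest density, with 3.56 copies per kilobase, and KLF13 was below the median with 0.893. The pentamer was not particular to these 10 genes. In the rest of the family SP3 (4.31), SP4 (3.66), KLF15 (3.66), SP2 (3.53) and SP7 (2.55) were above the median. KLF12, KLF14, KLF16, SP5 and SP6 were below it, and KLF1, KLF8, SP1 and SP8 had no copy. The longer element TTATTTATT was present in KLF5 alone among the 10, against 8.10% of all genes, and also in KLF16. Its 25 bases of context in KLF5 (chromosome 13) are given in DNA letters with the element in capitals.
KLF5 element: gtttatctTTATTTATTttgtggta
The stability of these messages was not measured, and the density of ATTTA was not adjusted for base composition. Of the 10 transcripts, 3 were above 49.8% GC, the median of all genes with an annotated 3′ untranslated region.

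KLF5 was by far the most abundant of the 10 transcripts. In the authors' deposited table KLF5 averaged 404 TPM in sgMETTL13 and 369 TPM in sgControl, which was 50.6% of the summed level of the 10 genes in sgMETTL13 and 51.2% in sgControl. KLF10 was second with 105 TPM in sgMETTL13 and 96.0 TPM in sgControl in the authors' deposited table, so that KLF5 stood 3.85-fold and 3.84-fold above it. The middle of the order was held by KLF13, KLF4, KLF6, KLF3, KLF7 and KLF2, from 67.9 to 23.0 TPM in sgMETTL13 and from 67.0 to 19.6 TPM in sgControl. KLF11 (6.67 TPM in sgMETTL13, 5.64 TPM in sgControl) and KLF9 (2.40 TPM in sgMETTL13, 1.91 TPM in sgControl) were the least abundant in the authors' deposited table. All 10 genes had the same rank in both groups. KLF4 and KLF6 were neighbours whose exact 95% Poisson intervals overlapped in sgMETTL13, at 59.4 to 63.2 TPM and 57.7 to 60.6 TPM, and did not in sgControl, at 48.9 to 52.4 TPM and 45.2 to 47.7 TPM. For all other neighbours the intervals were apart in both groups, and these intervals cover counting error only, not the spread between libraries.

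**Figure D1:**
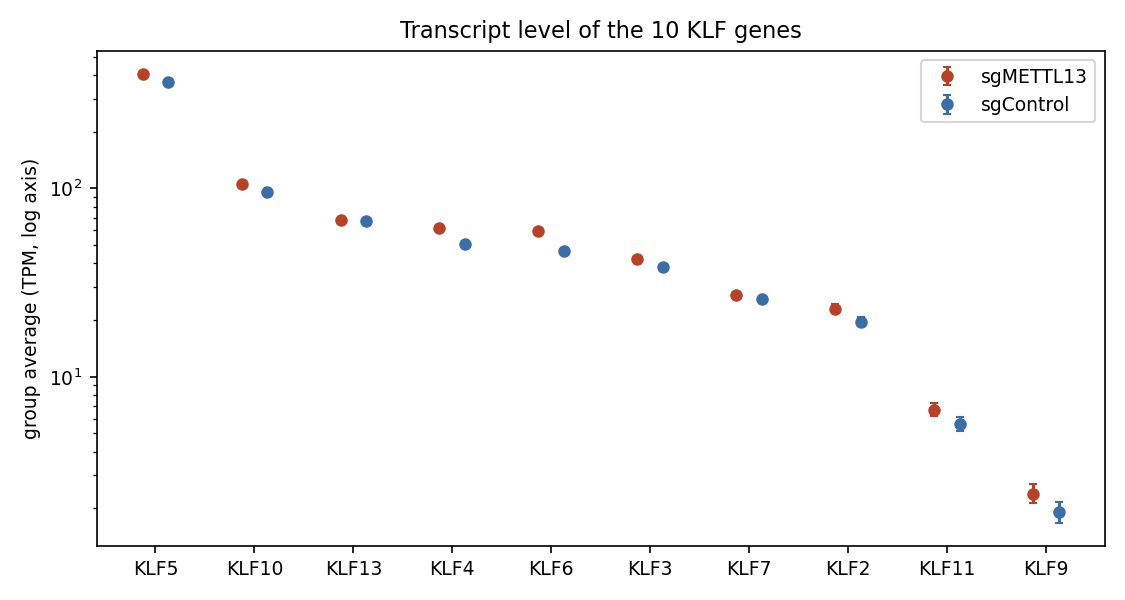
Group averages of the 10 KLF transcripts in TPM on a log axis, sgMETTL13 (red, left) and sgControl (blue, right), with exact 95% Poisson intervals that cover counting error only. KLF5 lies at 404 and 369 TPM, KLF9 at 2.40 and 1.91 TPM, and the sgMETTL13 average is above the sgControl average for all 10 genes.

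KLF6, KLF4 and KLF5 rose in sgMETTL13 cells, and none of the 10 genes was called lower. In the authors' deposited table these 3 of 10 genes, all higher in sgMETTL13, were called at an adjusted p under 0.05, where 3.80% of all genes were called in either direction, 2.73% higher and 1.08% lower. All 10 genes had a positive log2 fold change (log2FC, sgMETTL13 over sgControl), with a median of 0.26 and a range from 0.096 to 0.42, against a median of 0.0014 over all genes and 0.011 over the 8309 more abundant genes, those that reached the median of 205 mean reads. Positive values made up 53.3% of those 8309 genes. As the genes were picked on this comparison, nothing is read from these counts. Of all 632 calls, 453 were higher and 179 lower, and once a trend of fold change with GC content and transcript length was subtracted, a step that also centres the fold changes, 264 were higher and 167 lower. In bulk RNA a change in the share of cells that make a transcript and a change in its amount per cell cannot be told apart. The implied 95% interval given below is computed from the deposited fold change and p-value and assumes a normal test.

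**Figure D2:**
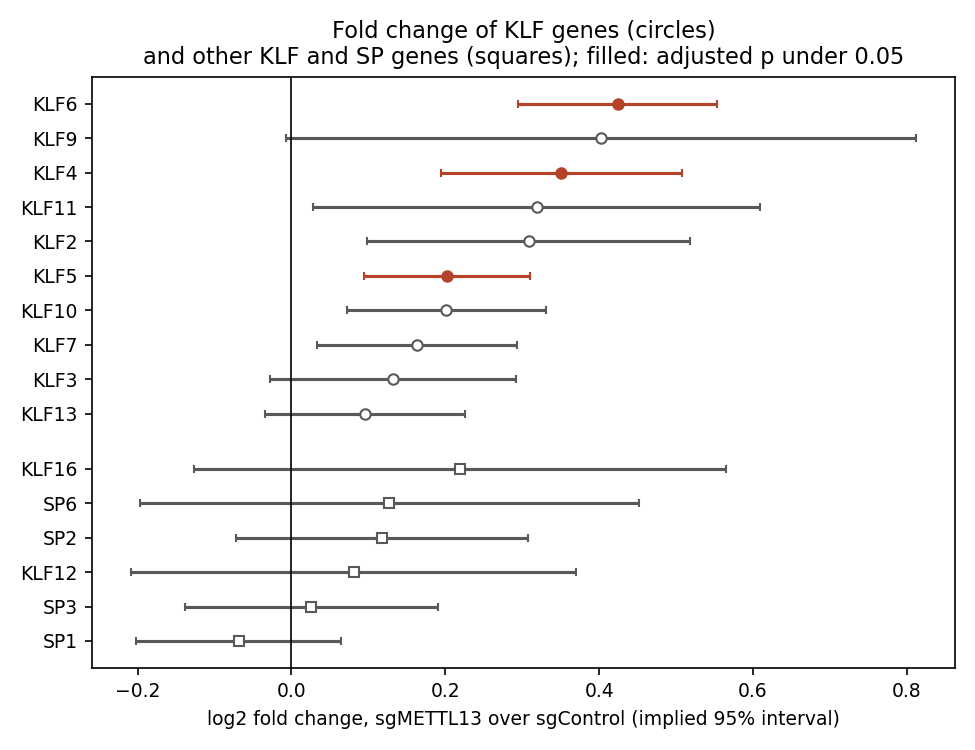
Log2FC of sgMETTL13 over sgControl from the authors' deposited table, with the implied 95% interval, for the 10 KLF genes (circles) and the other KLF and SP genes with at least 100 mean reads (squares). Filled red symbols have an adjusted p under 0.05, and these are KLF6 at 0.42, KLF4 at 0.35 and KLF5 at 0.20.

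Within the acetyltransferase-recruiting branch, KLF6 changed most. KLF6, a growth-restraining factor that is also an early response gene, averaged 59.2 TPM and 2146 estimated reads in sgMETTL13, against 46.4 TPM and 1657 estimated reads in sgControl, in the authors' deposited table. Its log2FC was 0.42 (1.34-fold, implied 95% interval from 0.30 to 0.55) with an adjusted p of 4.17e-08 in the authors' deposited table. KLF6 lies on the minus strand of chromosome 10, from 3775996 to 3785281 in GRCh38 (GENCODE 29).

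KLF4, a pluripotency and epithelial differentiation factor, averaged 61.3 TPM and 1366 estimated reads in sgMETTL13, against 50.7 TPM and 1110 estimated reads in sgControl, in the authors' deposited table. The log2FC of KLF4 was 0.35 (1.28-fold, implied 95% interval from 0.19 to 0.51) with an adjusted p of 0.00086 in the authors' deposited table. KLF4 lies on the minus strand of chromosome 9, from 107484852 to 107490482.

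KLF5, which sustains growth of epithelial progenitors, averaged 11095 estimated reads in sgMETTL13 and 9995 estimated reads in sgControl in the authors' deposited table. Its log2FC of 0.20 (1.15-fold, implied 95% interval from 0.094 to 0.31) came with an adjusted p of 0.0102 in the authors' deposited table. KLF5 lies on chromosome 13 (plus strand), from 73054976 to 73077542. Although its fold change was smaller than those of KLF6 and KLF4, its difference of 35.5 TPM made up 45.1% of the 78.7 TPM by which the 10 genes together were higher in sgMETTL13, and KLF6 and KLF4 together made up 29.7%. The summed level of the 10 genes was 799 TPM in sgMETTL13 and 720 TPM in sgControl.

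The other 2 genes of that branch did not pass the test. KLF2, best known from quiescent endothelium and T cells, averaged 23.0 TPM in sgMETTL13 and 19.6 TPM in sgControl, with a log2FC of 0.31 (implied 95% interval from 0.098 to 0.52) and an adjusted p of 0.0829 in the authors' deposited table. KLF7, a factor of neuronal development, averaged 27.2 TPM in sgMETTL13 and 25.9 TPM in sgControl, with a log2FC of 0.16 (implied 95% interval from 0.033 to 0.29) and an adjusted p of 0.187 in the authors' deposited table. KLF2 is GC-rich at 65.2% of its transcript, and once the trend with GC content and length was subtracted its log2FC was 0.19 (adjusted p = 0.597), while KLF7, at 43.8% GC, reached 0.22 (adjusted p = 0.0450).

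The SIN3A-binding branch had positive fold changes with no call. KLF10, first described as a TGF-beta-inducible early gene, averaged 105 TPM and 2507 estimated reads in sgMETTL13, against 96.0 TPM and 2260 estimated reads in sgControl, in the authors' deposited table. The log2FC of KLF10 was 0.20 (implied 95% interval from 0.072 to 0.33), nearly that of KLF5, and its adjusted p of 0.0557 was the nearest to the threshold among the genes not called, as that of KLF5 was the nearest among those called, in the authors' deposited table. KLF10 was called when p was adjusted over the more abundant genes alone (adjusted p = 0.0299) and once the trend with GC content and length was subtracted (adjusted p = 0.0450). KLF2 was called in the first of these settings (adjusted p = 0.0451).

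KLF11, its close relative, had a log2FC of 0.32 in the authors' deposited table (adjusted p = 0.308), on 209 estimated reads in sgMETTL13 and 173 in sgControl. KLF9, a target of glucocorticoid and thyroid hormone receptors, had 0.40 (adjusted p = 0.423), on 97.3 estimated reads in sgMETTL13 and 76.3 in sgControl, in the authors' deposited table. These 2 are the KLF genes under the median of 205 mean reads, and their implied standard errors of 0.15 and 0.21 compare with 0.055 to 0.11 for the other 8. The point estimate of KLF9 was close to that of KLF6, but its implied 95% interval, from -0.0069 to 0.81, was wide and held 0. KLF13, which acts in T-cell chemokine expression, had the smallest log2FC, 0.096 (implied 95% interval from -0.034 to 0.23), with 67.9 TPM in sgMETTL13 and 67.0 TPM in sgControl, in the authors' deposited table.

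KLF3, the CtBP-binding repressor of the erythroid and fat lineages, averaged 42.0 TPM in sgMETTL13 and 38.3 TPM in sgControl, with a log2FC of 0.13 (implied 95% interval from -0.027 to 0.29), in the authors' deposited table. The implied interval of KLF6 lay above those of KLF13, KLF3 and KLF7 and overlapped those of the other 6 genes, differences that were not tested. In all, 7 of the 10 implied intervals lay above 0 and 3 held 0.

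**Figure D3:**
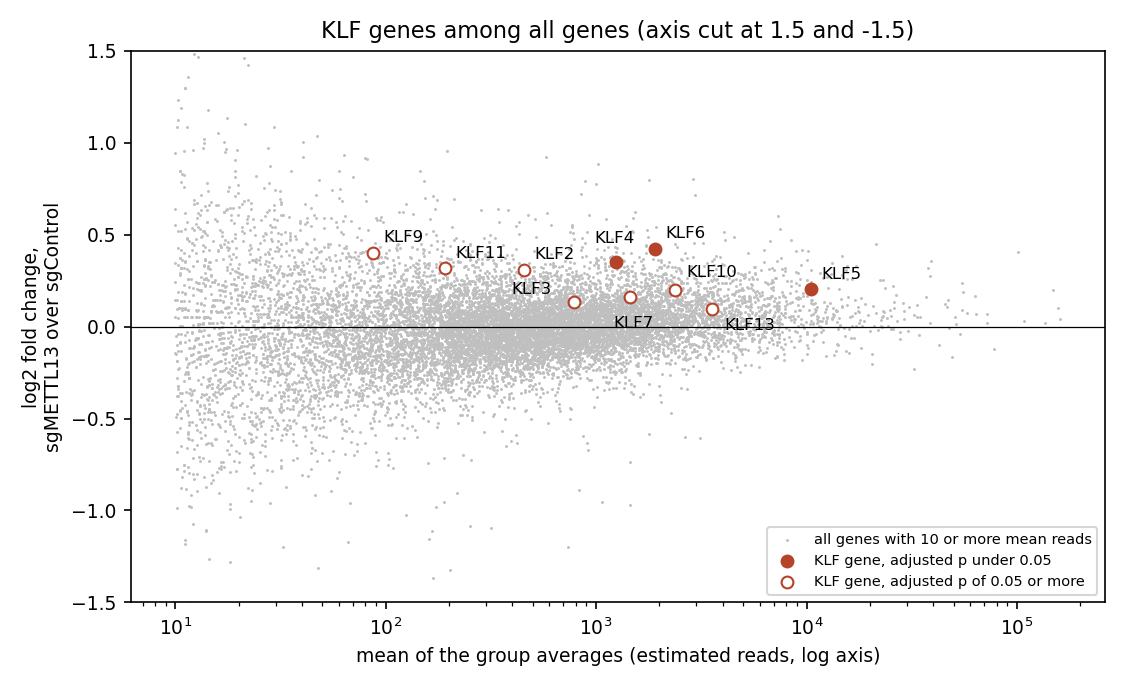
Log2FC of sgMETTL13 over sgControl against the mean of the group averages in estimated reads (log axis), for all genes with at least 10 mean reads (grey, vertical axis cut as marked) and the 10 KLF genes (red, filled where the adjusted p is under 0.05). The 10 genes lie between 0.096 and 0.42, and KLF9 and KLF11 lie among the genes with few reads, where the grey cloud is wide.

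Reads of related sequences could touch some of these values. GENCODE 29 lists 4 pseudogenes of KLF2, 2 of KLF3, 1 of KLF4 and 1 of KLF7, and reads that the authors' counting divided between copies would give fractions. The summed reads of all 10 KLF genes were whole numbers in both groups (tolerance 0.005 reads), whereas 21.4% of all genes had fractions. Pseudogene reads would give fractions only where the pseudogenes were among the sequences counted, which was not tested. Otherwise such reads would be counted whole for the KLF gene. KLF3 shares 266 exonic bases with the antisense gene KLF3-AS1 and KLF11 shares 416 with an annotated antisense gene. No use of strand in counting is given in the sources used here, so such reads cannot be told apart and the values of KLF3 and KLF11 are uncertain to that extent.

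The rest of the zinc finger family was read against the same shares of all genes, 3.80% called and 12.4% with an unadjusted p under 0.05. Of 7 other KLF genes and 9 SP factors 14 were measured, 0 passed the test in the authors' deposited table and 0 had an unadjusted p under 0.05. KLF8 and SP7 had averages of at most 3 reads per library in both groups and get no fold change. The other 12 had a median log2FC of 0.099, with 8 above 0, and 4 of them (KLF16, SP1, SP2 and SP3) reached 205 mean reads. KLF16, a SIN3A-binding member and the most abundant of these, averaged 80.9 TPM in sgMETTL13 and 73.3 TPM in sgControl, with a log2FC of 0.22 (implied 95% interval from -0.13 to 0.56), in the authors' deposited table. SP1, the ubiquitous GC-box factor, averaged 40.1 TPM in sgMETTL13 and 44.3 TPM in sgControl, with a log2FC of -0.068 (implied 95% interval from -0.20 to 0.065), in the authors' deposited table. The log2FC was 0.12 for SP2 and 0.026 for SP3 in the authors' deposited table. KLF12 (0.081) and SP6 (0.13) lay under 205 mean reads, and KLF14 (0.48), SP4 (-0.35), SP5 (-0.23), SP8 (0.25), KLF15 (-0.038) and KLF1 (0.25) had under 100 mean reads in the authors' deposited table. No test of the 10 genes against the rest of the family was made, since the 10 were picked on this comparison.

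Genes for proteins that act with KLFs were read against the 3.80% of all genes called, a share at which lists this short can hold no called gene without standing apart from the table. Of 10 cofactors 0 were called (1 at an unadjusted p under 0.05), with a median log2FC of -0.034. Among them the acetyltransferase KAT2B had 0.54 on 68.7 estimated reads in sgMETTL13 and 49.0 in sgControl, the corepressor CTBP1 had 0.11, SIN3A -0.076 and HDAC2 -0.069 in the authors' deposited table. Of 9 enzymes reported to control KLF protein turnover 0 were called (1 at an unadjusted p under 0.05), with a median of 0.047. In the authors' deposited table the ubiquitin ligase genes SMURF1, VHL, FBXW7 and WWP1 had values of 0.13, 0.097, -0.13 and -0.082 on the log2 scale. Of 7 genes of the MEK5-ERK5-MEF2 pathway, which induces KLF2 and KLF4 in endothelium, 0 were called (1 at an unadjusted p under 0.05), with a median of 0.051. The smallest adjusted p was that of MEF2D, with a log2FC of 0.20 and 0.0917 as its adjusted p in the authors' deposited table.

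Immediate-early genes are induced by serum and growth factors, as several KLF genes are. The counts of this and the next lists stand beside 2.73% of all genes called higher and 1.08% called lower. Of 10 such genes 6 were higher and 0 lower in the authors' deposited table, with a median log2FC of 0.49, with FOSB (0.72), IER3 (0.49), JUNB (0.47), EGR1 (0.59), IER2 (0.46) and ATF3 (0.50) called. ATF3 was not called once the trend with GC content and length was subtracted. Of 6 glucocorticoid-induced genes 2 were higher and 0 lower in the authors' deposited table, the phosphatase DUSP1 (0.61) and the leucine zipper gene TSC22D3 (0.41), while FKBP5 had -0.41 with an adjusted p of 0.437. The median of the 5 of these with over 3 reads per library was 0.16. Of 5 TGF-beta early genes TGIF1 was higher (0.33) and 0 were lower in the authors' deposited table, and SMAD7, an inhibitory SMAD whose promoter KLF10 is known to repress, had -0.071 on 53.7 estimated reads in sgMETTL13 and 58.3 in sgControl.

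Reported targets of KLF4 and KLF5 included 2 that rose. Of 16 such genes the authors' deposited table had 2 higher and 0 lower, where 3.80% of all genes were called, and 6 had an unadjusted p under 0.05, as 12.4% of all genes had, with a median of 0.053 over the 15 with over 3 reads per library. The genes called were the cell-cycle inhibitor CDKN1A, which KLF4 activates, with 464 TPM in sgMETTL13 and 354 TPM in sgControl (log2FC 0.47), and ODC1, the polyamine enzyme gene that KLF4 is known to repress, with 498 TPM in sgMETTL13 and 345 TPM in sgControl (log2FC 0.60), in the authors' deposited table. PDGFA (0.18) and MYC (0.14) were not called in the authors' deposited table. Of 10 genes reported as KLF2 or KLF6 targets 4 were higher and 0 lower in the authors' deposited table (2.73% and 1.08% of all genes), with a median of 0.29, namely PLAU (0.47), CDKN1A, TGFB1 (0.38) and ATF3 (0.50). ATF3 and CDKN1A each stand on 2 of the lists. These lists hold genes already known to be called in these cells, so their counts are not independent evidence of a direction. Whether KLF proteins had a part in the target levels was not tested.

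**Figure D4:**
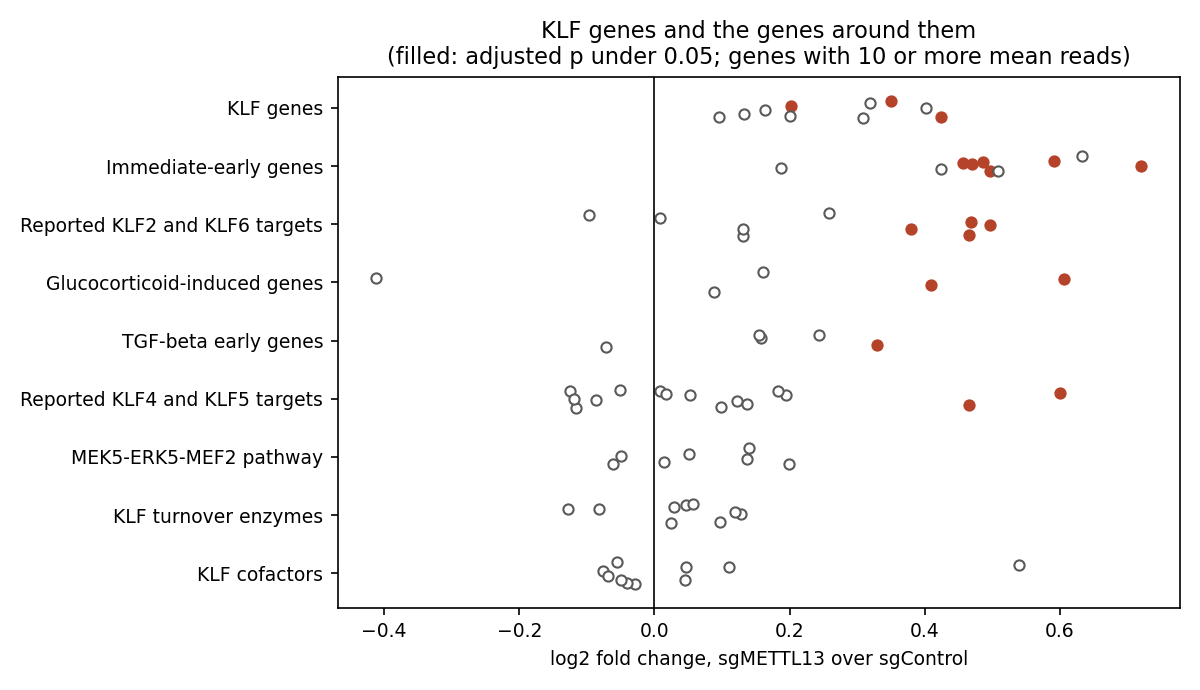
Log2FC of sgMETTL13 over sgControl for the 10 KLF genes and 8 lists of partner, inducer and target genes, 1 circle per gene with at least 10 mean reads, filled red where the adjusted p is under 0.05, with vertical scatter only to separate points. Filled circles number 6 for the immediate-early genes and 0 for cofactors, turnover enzymes and the MEK5-ERK5-MEF2 pathway.

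The size of the KLF changes depended on the scale. The authors' fold changes of abundant genes equal the ratio of average reads plus 0.052 on the log2 scale, and the ratio of average reads was smaller than the deposited value for all 10 genes. The ratio of average TPM was smaller for 9 genes and larger for 1, KLF3, by a difference in the third decimal. By the ratio of average TPM the log2 difference was 0.35 for KLF6, 0.27 for KLF4, 0.13 for KLF5, 0.13 for KLF10, 0.13 for KLF3, 0.072 for KLF7 and 0.021 for KLF13. All 10 genes remained above 0 on each of the scales tried.

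**Figure D5:**
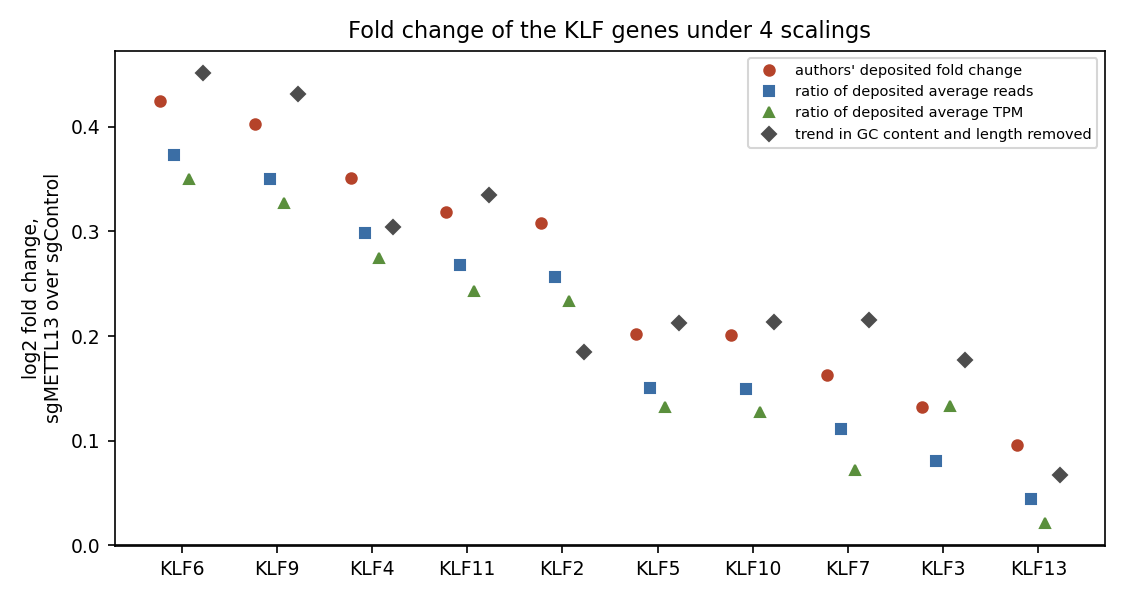
Log2FC of sgMETTL13 over sgControl for each KLF gene as deposited by the authors (circles), as the ratio of average reads (squares), as the ratio of average TPM (triangles) and after subtraction of the trend with GC content and length (diamonds). KLF6 ranges from 0.35 to 0.45 and KLF13 from 0.021 to 0.096, and all points lie above 0.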

How the data were processed

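The tools named per the submitters' processing notes are RSEM 1.2.12, Bowtie2 2.2.5, HISAT2 2.0.4 and DESeq2, the builds hg38 and GRCh38.p12; no role is stated for any of them. Per the file headers the authors' deposited table gives average TPM, average FPKM (not used) and average read count for each group, a log2 comparison of KD with WT, its p-value and its q-value. The read averages are the authors' estimated counts, as deposited. The labels tie KD to sgMETTL13 and WT to sgControl. The q-value is used as the adjusted p, and a gene is called where it is under 0.05.

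No value per library is in the table, so no count model was fitted, which the design allowed for, and single-library depth is unknown. The implied standard error divides the size of the fold change by the normal quantile belonging to its two-sided p-value. Transcripts and positions came from GENCODE 29 (principal transcript), promoters from RefSeq, taking the one nearest that transcript's start. The trend with GC content and length (splines, 4 degrees of freedom, 97.5% of genes) was chosen after seeing the data. The accuracy of the calls made with it in these data was not tested. The KLF genes and lists were chosen with earlier results of these data known. Named genes are METTL13, the 10 KLF genes, other KLF and SP genes, and up to 4 genes of smallest adjusted p per list; CD68, SMAD7 and genes completing a count of calls were named after their values were seen. Scripts used matplotlib 3.10.9, patsy 1.0.2, scipy 1.17.1, pandas 2.3.3 and numpy 2.4.6 under Python 3.11.15.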

Additional observations from a re-analysis of the deposited data

How the results depend on the processing

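The number of KLF genes called was 3 as deposited and 2 (KLF4 and KLF6) at a threshold of 0.01. It was 5 at a threshold of 0.10 and 5 with p adjusted over the more abundant genes alone, KLF2 and KLF10 being the additions in both. It was 5 once the trend with GC content and length was subtracted, where KLF7 and KLF10 were added, and 1 (KLF6) by Bonferroni adjustment. The number over all 16617 genes was 632 as deposited, 409 at a threshold of 0.01, 889 at a threshold of 0.10 and 180 by Bonferroni adjustment. It was 776 with p adjusted over the 8309 more abundant genes alone, and 431 once the trend with GC content and length was subtracted. The number of other KLF and SP genes called was 0 in all settings, and that of the 70 pathway genes ran from 10 to 15 against 13 as deposited; without the trend PTGES was called lower and ATF3 was not called. Of 58 fold changes of KLF genes under alternatives, 58 were above 0. These include the deposited value itself for the 8 more abundant KLF genes, in the setting where only p was adjusted again. The ratio of reads and centring on the median of the more abundant genes shift all KLF genes by nearly the same amount. As the genes were picked on this comparison, nothing is read from the count above 0. There were 12 that differed from the deposited value by more than 1 implied standard error. Of these, 11 were ratios of TPM and 1 was KLF2 with the trend subtracted (0.19). The cause of these changes was not tested. Leaving out replicates was not run, and no paired analysis was possible because the deposited columns are group averages that carry no replicate number.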

Other observations

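KLF16 had an implied standard error of 0.18, which was 2.51 times the median of the 774 genes with a read count within a factor of 1.2 of its own, whereas this ratio lay between 0.905 and 1.06 for the 10 KLF genes described. KLF12 averaged 3.87 TPM in sgMETTL13 and 4.31 TPM in sgControl, but 198 estimated reads in sgMETTL13 and 194 in sgControl, in the authors' deposited table, so its level per length and its read count went in opposite directions, and its deposited log2 fold change of 0.081 was not called.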
